A study of Mus musculus with 9 samples.

Results

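Fibronectin and a set of matricellular proteins were examined in whole lung: Fn1, Tnc, Postn, Tgfbi, Sparc, Thbs1, Thbs2, Ccn1, Ccn2 and Cthrc1. These 10 genes were taken by symbol from the 32671 genes of the deposited table, each symbol matched 1 row, and all 10 were among the 20794 genes that passed the filter on low counts. Messenger RNA of lung was sequenced from C57BL/6 mice labelled wild type, with 3 libraries in each of 3 groups, all at day 21. LNP mice had been challenged with bleomycin and then given inhaled lipid nanoparticles, labelled mCas9/gSting@DOPS, that carry Cas9 with a guide named for Sting. Bleomycin mice had received that drug alone, which breaks DNA and scars the lung, and control mice had received saline. No group given particles without the guide was analysed here, and the labels give no ages. They do not say whether libraries of a group come from different mice, so the p-values rest on the spread between libraries, which may be technical.

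Matricellular proteins are secreted into the extracellular matrix, where they bind cell surface receptors, growth factors and collagen rather than form load-bearing fibres themselves. Fibronectin, the product of Fn1, forms the provisional matrix of wounds, onto which collagen is later deposited, and binds integrins. Transforming growth factor beta (TGF-beta) is known to induce most of these genes in fibroblasts, and thrombospondin 1 can in turn activate latent TGF-beta.

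Totals of gene counts ran from 56047830 to 69404903 per library. The lung markers Sftpc and Ager were at 3759.9 CPM or more and 2245 CPM or more in every library, where CPM is the count scaled by the TMM-adjusted library size. Sting1, for which the guide is named, was at 51.8, 62.0 and 44.3 CPM in LNP samples, 53.8, 41.5 and 40.5 CPM in bleomycin samples and 18.4, 23.9 and 20.9 CPM in control samples, and this level does not show whether the gene was edited. Values of a group are in the order of replicates 1, 2 and 3. LNP replicate 3 stood apart: the summed level of 12 skeletal muscle markers was 12.1, 12.4 and 8659.7 CPM in LNP samples, 8.77, 15.4 and 15.5 CPM in bleomycin samples and 36.9, 53.9 and 36.3 CPM in control samples. For squamous epithelium markers, 11 of 12 in the table, the sum was 53.8, 40.1 and 1947 CPM in LNP samples, 35.9, 34.4 and 29.6 CPM in bleomycin samples and 8.29, 11.0 and 5.46 CPM in control samples. LNP replicate 3 was also the nearest to bleomycin in Sftpc, at 13418, 10479 and 3759.9 CPM in LNP samples. Sftpc was at 5148, 4928 and 4530 CPM in bleomycin samples and 15373, 20487 and 14723 CPM in control samples. For Ager it was not, at 3221, 3254 and 2245 CPM in LNP and 3388, 3233 and 2999 CPM in bleomycin samples. The LNP results on which this library bears are therefore also given without it. Leaving it out removes more than muscle and squamous transcripts, and what this adds to the results was not tested. In bulk tissue, fewer cells of a type and less RNA per cell cannot be told apart. A ± gives the SD of the n = 3 samples of a group beside a level, and the SE beside a log2 change (the log2 of the fold change). Adjusted p-values are from edgeR's quasi-likelihood test with Benjamini-Hochberg adjustment over all genes tested.

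Bleomycin lung had 9 of the 10 genes at higher levels than control lung, and Postn was the exception. Of all genes tested, 15.2% were called higher and 18.5% lower in this comparison. No member was called lower, also in DESeq2 or at an unadjusted p under 0.05 in edgeR. The same 9 had no overlap between bleomycin and control libraries, against 25.9% of all genes with bleomycin above control. The median log2 change was 2.70 over the 10 members and -0.05 over all genes. The members were chosen with earlier results of these data known, so contrasts of members with all genes are descriptions only. By its mean, LNP lung lay between the other groups for the 9 genes and below both for Postn. In LNP lung 5 of the 10 genes were called lower than in bleomycin lung, against 1.87% of all genes (4.28% were called higher), and 8 were called higher than in control lung, against 4.95% of all genes. Both LNP comparisons use the same LNP libraries, and each shares its other group with the comparison of bleomycin and control.

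**Figure D1:**
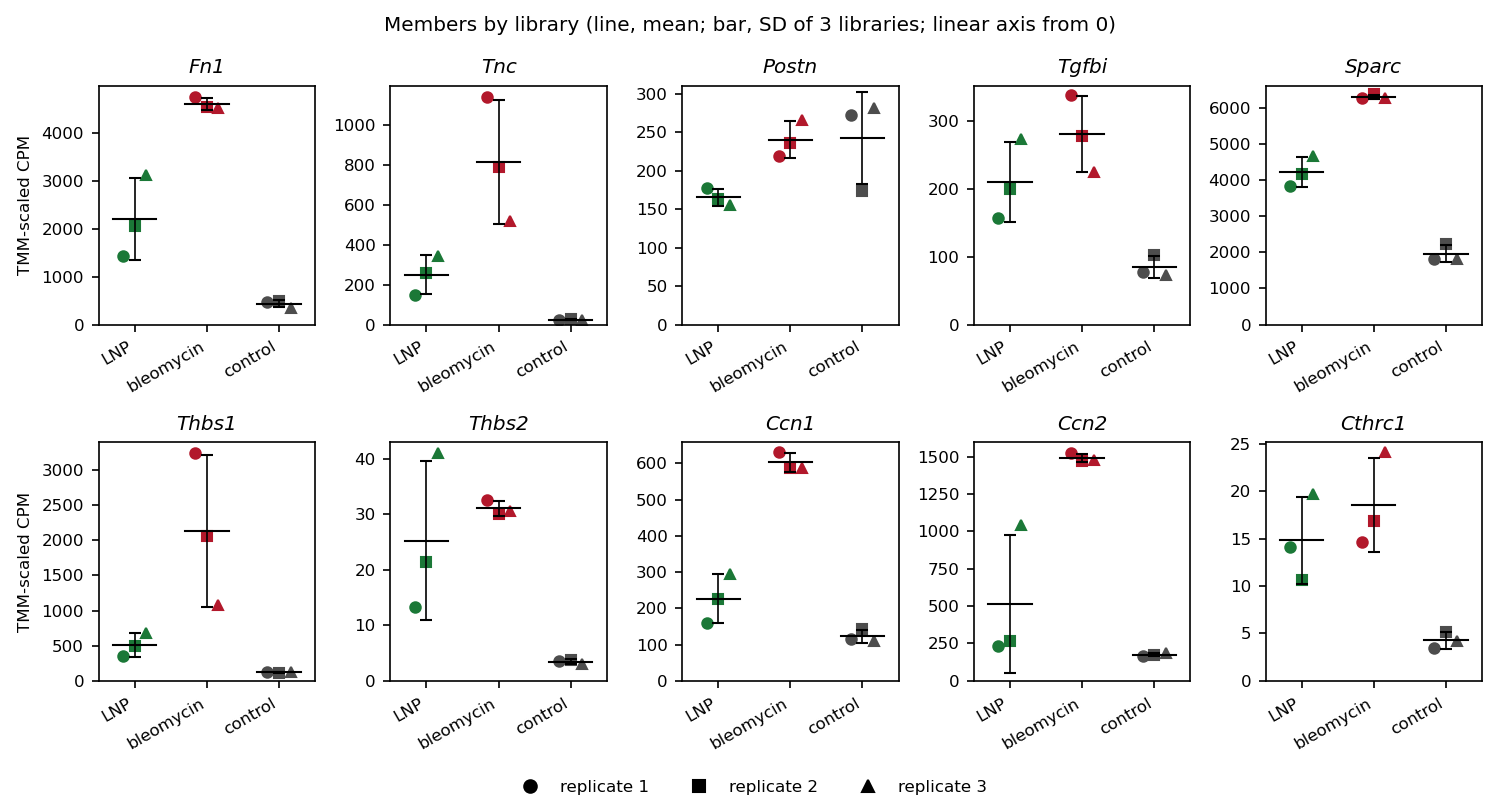
Level of each of the 10 genes in every library, in TMM-scaled CPM on linear axes from 0. Points are libraries with 1 marker shape per replicate number, lines are group means and bars are SD over 3 libraries. In 9 panels all bleomycin points lie above all control points, and Postn is the panel in which they overlap.

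On a scale per transcript length (FPKM, fragments per kilobase of transcript, scaled to depth), Sparc was the most abundant of the 10 in every group and Thbs2 the least. Sparc averaged 1063 ± 91.8 FPKM in LNP, 1462 ± 71.2 FPKM in bleomycin and 474 ± 36.0 FPKM in control lung. Thbs2 averaged 3.42 ± 1.89 FPKM, 3.89 ± 0.0996 FPKM and 0.452 ± 0.0449 FPKM in the same order of groups. In bleomycin lung the order below Sparc was Ccn2, Fn1, Thbs1, Ccn1, Tnc, Tgfbi, Postn, Cthrc1 and Thbs2, where Fn1 overlapped Thbs1, Thbs1 overlapped Ccn1 and Tnc overlapped Tgfbi. In control lung the order was Ccn2, Ccn1, Fn1, Postn, Tgfbi, Thbs1, Tnc, Cthrc1 and Thbs2. There Ccn2 and Ccn1 overlapped, at 56.2 ± 4.86 FPKM and 55.7 ± 5.52 FPKM, as did each neighbouring pair from Fn1 to Thbs1 and the pair of Tnc and Cthrc1. In LNP lung the order was Sparc, Fn1, Ccn2, Ccn1, Thbs1, Tgfbi, Tnc, Postn, Cthrc1 and Thbs2, and every neighbouring pair from Fn1 to Postn overlapped. Postn had rank 5 in control lung, but rank 8 in bleomycin and in LNP lung. Together the 10 genes held 0.684, 0.827 and 1.09% of all gene counts in the LNP libraries, 1.65, 1.58 and 1.50% in the bleomycin libraries and 0.314, 0.330 and 0.309% in the control libraries.

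Fn1 (ENSMUSG00000026193, chromosome 1, 71624679 to 71692334, minus strand, in coordinates of the deposited table, which names no genome build and differs from GRCm38 in this position) encodes fibronectin, an adhesion protein of blood plasma and of tissue matrix. Its level was 1442, 2051 and 3126 CPM in LNP samples, 4769, 4544 and 4527 CPM in bleomycin samples and 462, 498 and 356 CPM in control samples. The 3 groups did not overlap. In bleomycin lung Fn1 was 10.5-fold higher than in control lung (log2 change 3.39 ± 0.28, adjusted p = 9.6e-05). LNP lung had 2207 ± 853 CPM and bleomycin lung 4613 ± 135 CPM, a difference that was called (log2 change -1.06 ± 0.26, adjusted p = 0.042). Over the other settings tried, the adjusted p of that difference ran from 0.00079, without LNP replicate 3, to 1, under a minimum of 2-fold, and it was 0.051 to 0.14 when any 1 library other than LNP replicate 3 was left out. Against control, Fn1 stayed 5.03-fold higher in LNP lung (log2 change 2.33 ± 0.27, adjusted p = 0.0015), and 4.09-fold without LNP replicate 3. Without that library the log2 change against bleomycin was -1.40.

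Fibronectin is spliced at 3 places, at the extra domains A and B and in the variable region, and the form in plasma, made by liver, lacks both extra domains. Of the 53 transcripts of the 10 genes, all 53 have their identifier in GENCODE M21 (GRCm38), which served for exon structure and for the exon coordinates below, given in that build. In 7 full-length coding transcripts, which held 97.0% to 99.8% of the Fn1 counts of a library, a coding exon of 270 bases at chr1:71603660-71603929 was present in 4 and skipped in 3. An exon of 273 bases at chr1:71613763-71614035 was present in 1 and skipped in 6. Both lie on the minus strand, and by their lengths and order they are the exons of the extra domains A and B. They are shown 5′ to 3′ in capitals with 12 bases of each neighbouring exon in lower case, because all LNP and bleomycin libraries lay above all control libraries in the share of Fn1 that carries the A exon.
Extra domain A exon: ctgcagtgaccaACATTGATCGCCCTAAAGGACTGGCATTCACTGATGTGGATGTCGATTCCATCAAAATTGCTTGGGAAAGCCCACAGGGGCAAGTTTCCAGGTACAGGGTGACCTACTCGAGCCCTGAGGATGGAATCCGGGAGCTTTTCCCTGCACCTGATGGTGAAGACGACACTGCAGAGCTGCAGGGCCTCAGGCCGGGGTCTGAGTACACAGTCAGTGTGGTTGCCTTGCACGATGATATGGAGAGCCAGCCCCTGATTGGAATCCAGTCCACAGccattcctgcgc
Extra domain B exon: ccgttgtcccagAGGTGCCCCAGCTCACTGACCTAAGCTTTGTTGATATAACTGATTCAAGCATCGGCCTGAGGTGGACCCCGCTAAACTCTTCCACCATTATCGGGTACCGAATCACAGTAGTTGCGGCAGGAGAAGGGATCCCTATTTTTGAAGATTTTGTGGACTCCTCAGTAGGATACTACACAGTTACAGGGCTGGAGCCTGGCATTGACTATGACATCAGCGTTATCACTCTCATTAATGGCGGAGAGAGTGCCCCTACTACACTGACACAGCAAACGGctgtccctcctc

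Of the full-length Fn1 counts, transcripts with the A exon held 76.3, 78.7 and 76.7% in the LNP libraries, 75.7, 78.1 and 74.2% in the bleomycin libraries and 27.7, 62.1 and 63.1% in the control libraries. All 6 libraries of the LNP and bleomycin groups lay above all 3 control libraries, and control replicate 1 was far below the other control libraries. Much of this gap lay in a single estimated transcript that skips the A exon, ENSMUST00000186129. It held 0.381, 0.389 and 6.98% of the Fn1 counts in the LNP libraries and 1.59, 2.23 and 3.09% in the bleomycin libraries. In the control libraries it held 59.0, 18.2 and 14.9%. Whether its estimate is accurate was not tested, so a change of splicing is not shown. The means were 77.2 ± 1.31% in LNP, 76.0 ± 1.93% in bleomycin and 51.0 ± 20.1% in control lung (SD, n = 3). An exact two-sided permutation test gave p = 0.1 for each of the LNP and bleomycin groups against control, the smallest p that 3 against 3 libraries allow, and p = 0.4 for LNP against bleomycin. The total behind these shares was 24614 to 32748 counts in control and 103698 to 298668 counts in the other libraries. Counts of transcripts that share exons are estimates, so no counting interval was computed for them.

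The B exon was rarer. Of the full-length counts its transcript held 1.53, 3.30 and 18.3% in the LNP libraries, 4.02, 1.86 and 5.79% in the bleomycin libraries and 0, 8.42 and 0.0894% in the control libraries, where the 0 is a listed estimate. LNP replicate 3 was the highest library, and the groups overlapped. In the variable region, transcripts that lack 360 coding bases held 13.5, 14.2 and 9.02% in the LNP libraries, 9.48, 7.96 and 9.72% in the bleomycin libraries and 10.7, 16.2 and 14.5% in the control libraries. Bleomycin lung had 9.05 ± 0.953% of this form and control lung 13.8 ± 2.81%, without overlap (exact two-sided permutation p = 0.1). Transcripts that lack 75 coding bases there held 45.0, 41.1 and 33.8% in the LNP libraries, 45.8, 47.3 and 43.5% in the bleomycin libraries and 17.2, 31.4 and 37.1% in the control libraries, and here all bleomycin libraries lay above all control libraries (exact two-sided permutation p = 0.1). All these shares are over the same full-length transcripts, so they are not separate from the A exon shares. The transcript ENSMUST00000186129 keeps the whole variable region. Its 59.0, 18.2 and 14.9% of Fn1 counts in the control libraries therefore lower the control shares of the shorter forms too.

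**Figure D2:**
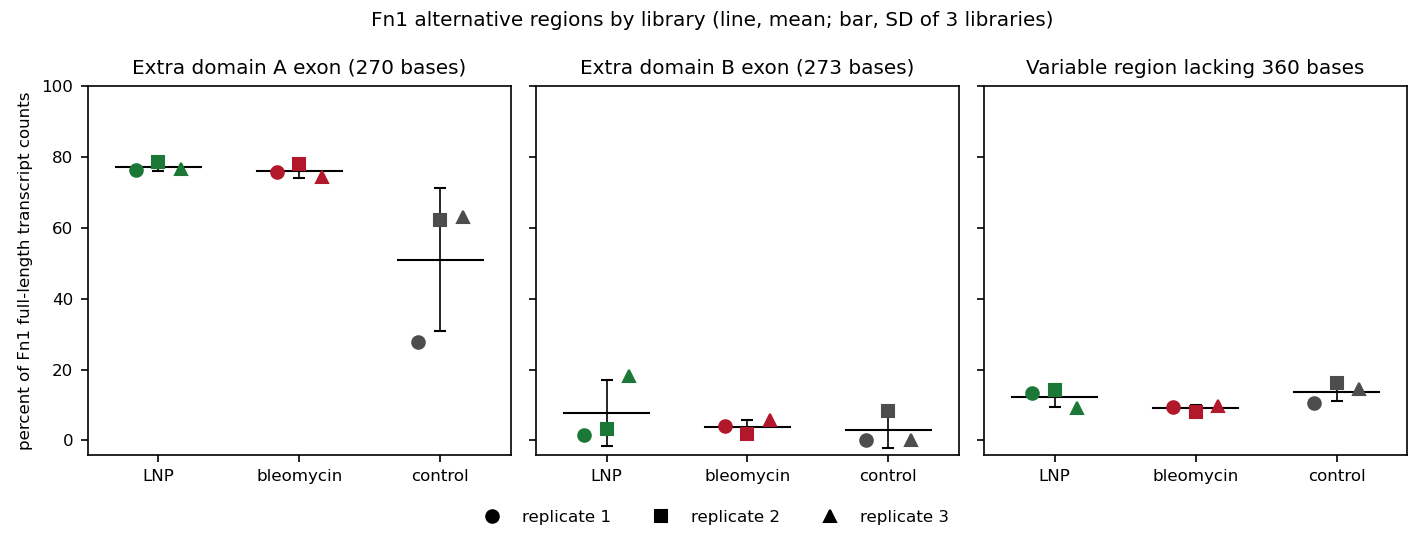
Percent of full-length Fn1 transcript counts that carry the 270-base extra domain A exon, that carry the 273-base extra domain B exon, and that lack 360 bases of the variable region, by library. Lines are means and bars SD over 3 libraries. The A exon share lies between 74.2% and 78.7% in the LNP and bleomycin libraries and between 27.7% and 63.1% in the control libraries.

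Tnc (ENSMUSG00000028364, chromosome 4, 63878022 to 63965252, minus strand) encodes tenascin C, a hexameric glycoprotein that is sparse in resting adult tissue and appears in healing wounds. It had the largest rise of the 10 genes after bleomycin. Its level was 148, 260.0 and 343 CPM in LNP samples, 1142, 792 and 518 CPM in bleomycin samples and 22.6, 25.5 and 23.8 CPM in control samples. All bleomycin libraries lay above all LNP libraries, and these above all control libraries. Tnc was 34.1-fold higher in bleomycin than in control lung (log2 change 5.09 ± 0.39, adjusted p = 7.9e-05), the rise of rank 188 among the 20794 genes. It was lower in LNP than in bleomycin lung (log2 change -1.71 ± 0.33, adjusted p = 0.021) and 10.4-fold higher in LNP than in control lung (log2 change 3.38 ± 0.35, adjusted p = 0.0011). Between LNP and bleomycin lung Tnc had adjusted p-values from 0.055 to 0.08 when LNP replicate 1 or 2 or bleomycin replicate 1 or 2 was left out. When LNP replicate 3 was left out, Tnc in LNP lung was 3.99-fold lower than in bleomycin and 8.73-fold higher than in control lung, with adjusted p-values of 0.0022 and 0.00034. Of the full-length Tnc counts, transcripts with a 273-base coding exon held 44.6, 33.0 and 37.2% in the LNP libraries, 20.1, 28.0 and 31.9% in the bleomycin libraries and 97.7, 12.3 and 99.6% in the control libraries. The control shares rest on 1378 to 1685 counts and spread over nearly the whole scale. LNP lay above bleomycin libraries without overlap (exact two-sided permutation p = 0.1, the smallest that 3 against 3 libraries allow). These Tnc shares also rest on estimated transcript counts, so a change of splicing is not shown.

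Postn and Tgfbi encode periostin and the protein TGFBI (also called big-h3), relatives built of repeated fasciclin (FAS1) domains that bind collagen and integrins. Tgfbi was higher in bleomycin than in control lung, and Postn was not called. Postn (ENSMUSG00000027750, chromosome 3, 54268530 to 54298458, plus strand) was at 178, 163 and 156 CPM in LNP samples, 219, 236 and 267 CPM in bleomycin samples and 273, 173 and 282 CPM in control samples. Bleomycin and control libraries overlapped, and all LNP libraries lay below all bleomycin libraries. Postn averaged 241 ± 24.0 CPM in bleomycin and 243 ± 60.1 CPM in control lung (log2 change -0.01 ± 0.18, adjusted p = 0.97, 95% interval -0.42 to 0.40), an interval that spans 0. Its direction in this comparison changed with the settings, from -0.21 to 0.11 on the log2 scale, with adjusted p-values of 0.24 to 1. Against bleomycin, the LNP level was lower but not called (log2 change -0.54 ± 0.18, adjusted p = 0.11). Without control replicate 2 it was called (adjusted p = 0.034), and over the other settings the adjusted p was 0.052 to 1.

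The dominant Postn transcript, ENSMUST00000117373, lacks both alternative coding exons near the end of the gene. An 84-base exon was carried by 33.6, 22.5 and 7.62% of the full-length Postn counts in the LNP libraries, by 11.1% to 28.3% in the bleomycin libraries and by 7.83, 6.73 and 8.89% in the control libraries. Every bleomycin library lay above every control library (exact two-sided permutation p = 0.1, the smallest that 3 against 3 libraries allow), while total Postn was not called. The other exon, of 81 bases, was carried by 1.71, 5.68 and 1.54% in the bleomycin libraries. In the control libraries it was carried by 1.26, 6.00 and 0.582%, with overlap (exact two-sided permutation p = 0.7). These shares rest on estimated transcript counts, so a change of Postn splicing is not shown. Tgfbi (ENSMUSG00000035493, chromosome 13, 56757336 to 56787375, plus strand) was at 156, 199 and 273 CPM in LNP samples, 337, 278 and 225 CPM in bleomycin samples and 76.6, 103 and 73.2 CPM in control samples. All LNP and bleomycin libraries were above all control libraries, and the LNP and bleomycin groups overlapped. Tgfbi was 3.33-fold higher in bleomycin than in control lung (log2 change 1.74 ± 0.24, adjusted p = 0.00079) and 2.49-fold higher in LNP than in control lung (log2 change 1.32 ± 0.24, adjusted p = 0.0092). LNP and bleomycin lung were not called different (log2 change -0.42 ± 0.23, adjusted p = 0.3, 95% interval -0.94 to 0.10), but without LNP replicate 3 the difference was called (log2 change -0.65 ± 0.20, adjusted p = 0.043). The LNP against control difference had an adjusted p of 0.053 without control replicate 1 and 0.051 without control replicate 3.

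Sparc (ENSMUSG00000018593, chromosome 11, 55285326 to 55314009, minus strand) encodes a collagen-binding protein that takes part in fibril assembly. Its level was 3849.9, 4167 and 4667 CPM in LNP samples, 6272, 6375 and 6270.5 CPM in bleomycin samples and 1826, 2232 and 1818 CPM in control samples. The 3 groups did not overlap, and the bleomycin libraries had a highest level 1.02 times the lowest. Sparc was 3.22-fold higher in bleomycin than in control lung (log2 change 1.69 ± 0.15, adjusted p = 0.00012). It was lower in LNP than in bleomycin lung (log2 change -0.58 ± 0.14, adjusted p = 0.046), the call closest to the threshold among the 5. That call was lost in 14 of the 19 other settings, with adjusted p-values of 0.066 to 0.16 when a library other than LNP replicate 3 or control replicate 2 was left out. LNP lung had 2.16-fold the control level (log2 change 1.11 ± 0.14, adjusted p = 0.0026).

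The thrombospondins are large calcium-binding glycoproteins. Thbs1 and Thbs2 form trimers, bind the receptors CD36 and CD47 and inhibit the growth of vessels, and Thbs1 is also stored in platelets. Thbs1 (ENSMUSG00000040152, chromosome 2, 117942357 to 117957614, plus strand) was at 347, 491 and 682 CPM in LNP samples, 3238, 2063 and 1078 CPM in bleomycin samples and 131, 114 and 119 CPM in control samples. The groups did not overlap, although the highest bleomycin library had 3.00 times the level of the lowest. Thbs1 was 17.6-fold higher in bleomycin than in control lung (log2 change 4.13 ± 0.41, adjusted p = 0.0002), and lower in LNP than in bleomycin lung (log2 change -2.07 ± 0.37, adjusted p = 0.016), the largest difference of the 10 genes in that comparison with all libraries. Its log2 change was -2.34 without LNP replicate 3, smaller in size than that of Ccn2. Its adjusted p lay between 0.055 and 0.067 when LNP replicate 1 or 2 or bleomycin replicate 1 or 2 was left out. LNP lung remained 4.18-fold above control lung (log2 change 2.06 ± 0.37, adjusted p = 0.0092). The summed level of 11 platelet and megakaryocyte markers was 70.8, 42.3 and 66.1 CPM in LNP samples, 52.1, 72.5 and 84.4 CPM in bleomycin samples and 95.8, 179 and 112 CPM in control samples. Of the 11 markers, 1 was called higher and 5 lower in bleomycin against control. The one called higher was Pf4, the platelet chemokine, at 14.4, 11.1 and 16.2 CPM in LNP samples, 30.6, 30.4 and 21.3 CPM in bleomycin samples and 11.5, 22.5 and 15.0 CPM in control samples. The part of platelets in the Thbs1 level was not tested.

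Thbs2 (ENSMUSG00000023885, chromosome 17, 14885762 to 14914497, minus strand) was the rarer thrombospondin on the FPKM scale. Its level was 13.2, 21.4 and 41.0 CPM in LNP samples, 32.6, 30.0 and 30.5 CPM in bleomycin samples and 3.61, 3.81 and 2.97 CPM in control samples. Every LNP and bleomycin library was above every control library, and LNP replicate 3 was the highest of all. Thbs2 was 8.96-fold higher in bleomycin than in control lung (log2 change 3.16 ± 0.36, adjusted p = 0.00036) and 7.28-fold higher in LNP than in control lung (log2 change 2.86 ± 0.36, adjusted p = 0.0023). LNP and bleomycin lung were not called different (log2 change -0.30 ± 0.33, adjusted p = 0.62). The estimate rested on single libraries: it was -0.84 with an adjusted p of 0.017 without LNP replicate 3, and 0.008 with an adjusted p of 0.99 without LNP replicate 1.

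Ccn1 and Ccn2, also known as Cyr61 and Ctgf, encode secreted proteins that bind integrins and heparan sulphate and are known targets of the YAP and TEAD factors and of TGF-beta. Ccn1 (ENSMUSG00000028195, chromosome 3, 145352731 to 145355736, minus strand) was at 158, 226 and 294 CPM in LNP samples, 632, 588 and 588 CPM in bleomycin samples and 115, 143 and 109.7 CPM in control samples. The groups did not overlap, and the lowest LNP library was close to the highest control library. Ccn1 was 4.91-fold higher in bleomycin than in control lung (log2 change 2.30 ± 0.22, adjusted p = 0.00018). It was lower in LNP than in bleomycin lung (log2 change -1.42 ± 0.21, adjusted p = 0.0098), with an adjusted p of 0.051 without bleomycin replicate 2. Of the 5 members called in that comparison, Ccn1 had the smallest p. Against control it was 1.84-fold higher in LNP lung (log2 change 0.88 ± 0.21, adjusted p = 0.031). That call was lost in 10 of the 19 other settings. Among these were the fits without LNP replicate 2, any bleomycin library or control replicate 1 or 3, with adjusted p-values of 0.05 to 0.12.

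Ccn2 (ENSMUSG00000019997, chromosome 10, 24471340 to 24474581, plus strand) was at 231, 266 and 1045 CPM in LNP samples, 1523, 1471 and 1481 CPM in bleomycin samples and 166, 171 and 186 CPM in control samples. The groups did not overlap, but LNP replicate 3 had 4.21 times the mean of the other LNP libraries, which were close to control. Ccn2 was 8.55-fold higher in bleomycin than in control lung (log2 change 3.10 ± 0.51, adjusted p = 0.0019). Neither LNP comparison was called with all libraries (log2 change -1.54 ± 0.48, adjusted p = 0.089 against bleomycin; log2 change 1.56 ± 0.48, adjusted p = 0.081 against control). Without LNP replicate 3, Ccn2 was 5.99-fold lower in LNP than in bleomycin lung (log2 change -2.58 ± 0.13, adjusted p = 5.2e-06) and 1.46-fold higher than in control lung (log2 change 0.55 ± 0.12, adjusted p = 0.013). Without LNP replicate 1 LNP lung was called higher than control (adjusted p = 0.029). On log2(FPKM + 1), limma called it lower in LNP than in bleomycin lung with all libraries (adjusted p = 0.048). Whether the muscle and squamous transcripts of LNP replicate 3 have a part in its Ccn2 level was not tested.

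The promoter of Ccn1 is shown because it held the single match of the motifs searched. RefSeq promoters (GRCm38.p6, 250 bases before to 50 after a start) were at hand for 6 of the 10 genes, in 8 windows. None was at hand for Fn1, Thbs1, Ccn2 or Cthrc1, so whether these hold the motifs was not searched. The TEAD motif GGAATG, the AP-1 motif TGANTCA and the CArG box of SRF were searched on both strands. They lie in 14.7%, 7.81% and 1.63% of all 32851 promoter windows. The single match in the 8 windows was a TEAD motif in the Ccn1 window (chr3:145649936-145650235, minus strand), 103 bases before the start, in reverse orientation and in capitals below. Such a match is a description of these letters only.
Ccn1 promoter: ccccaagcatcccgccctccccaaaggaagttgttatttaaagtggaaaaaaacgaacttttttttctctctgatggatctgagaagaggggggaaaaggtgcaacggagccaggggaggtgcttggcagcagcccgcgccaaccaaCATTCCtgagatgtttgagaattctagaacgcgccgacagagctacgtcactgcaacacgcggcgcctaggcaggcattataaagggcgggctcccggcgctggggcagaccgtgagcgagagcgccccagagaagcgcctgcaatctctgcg

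Cthrc1 (ENSMUSG00000054196, chromosome 15, 38940327 to 38950516, plus strand) encodes a secreted protein with a short collagen-like repeat, known in mouse lung as a marker of a fibrotic fibroblast state. Its level was 14.1, 10.6 and 19.7 CPM in LNP samples, 14.7, 16.9 and 24.1 CPM in bleomycin samples and 3.41, 5.16 and 4.19 CPM in control samples. All LNP and bleomycin libraries were above all control libraries, and LNP and bleomycin libraries overlapped. Cthrc1 was 4.36-fold higher in bleomycin than in control lung (log2 change 2.12 ± 0.28, adjusted p = 0.00072) and 3.48-fold higher in LNP than in control lung (log2 change 1.80 ± 0.28, adjusted p = 0.0053). Between LNP and bleomycin lung Cthrc1 was not called different (log2 change -0.33 ± 0.27, adjusted p = 0.5, 95% interval -0.94 to 0.28), also without LNP replicate 3 (adjusted p = 0.13).

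**Figure D3:**
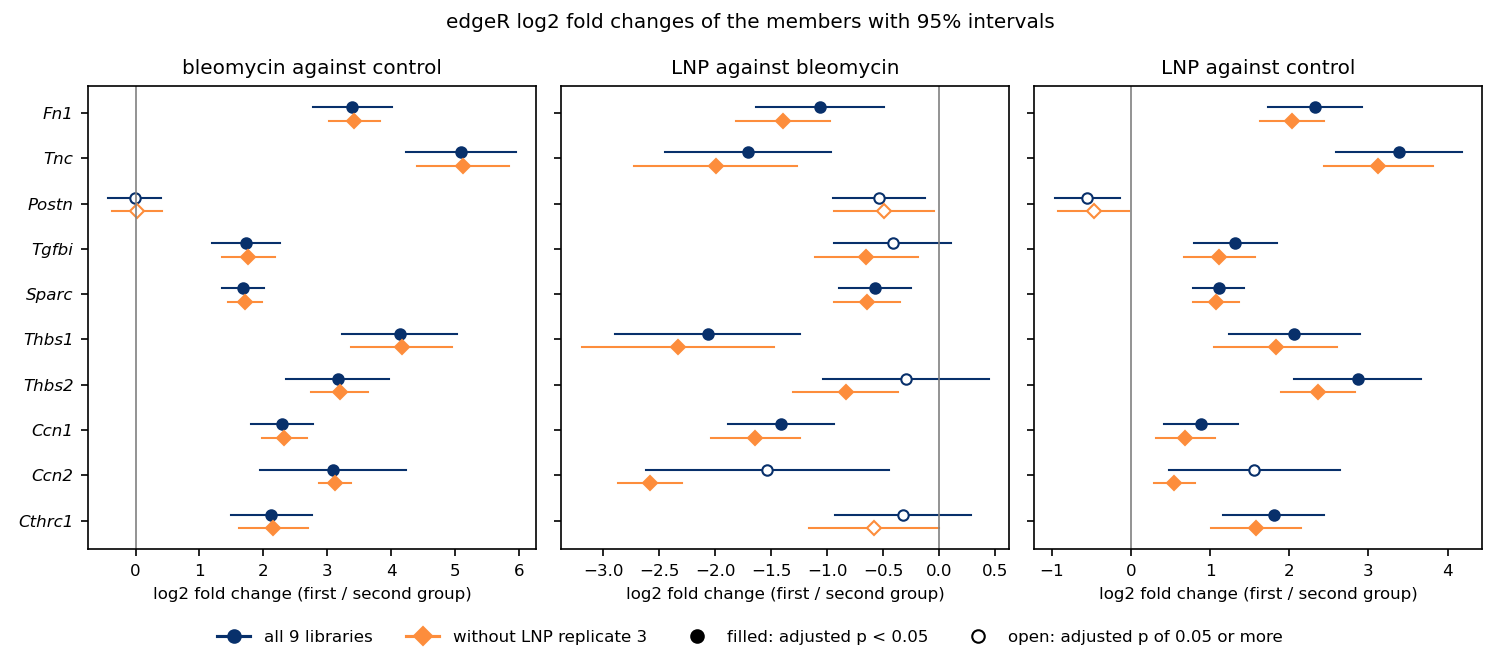
Log2 changes of the 10 genes in the 3 comparisons, with 95% intervals from edgeR, for all 9 libraries (circles) and without LNP replicate 3 (diamonds). Filled symbols have an adjusted p under 0.05. Without that library 8 genes in place of 5 are filled for LNP against bleomycin, and the Ccn2 interval is narrower in all 3 panels.

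Set against bleomycin, LNP lung thus had 5 of 10 members called lower (Fn1, Tnc, Sparc, Thbs1 and Ccn1) and none called higher in edgeR, in DESeq2 or at an unadjusted p under 0.05. All 10 fold changes were negative, with a median log2 change of -0.82 against 0.04 over all genes, and 7 genes had no overlap, against 14.5% of all genes with LNP below bleomycin. The count of 5 depended on the libraries. It was 8 without LNP replicate 3, where 10.7% of all genes were called lower and 14.0% higher, 3 without bleomycin replicate 3 or control replicate 1 or 3, 1 without LNP replicate 1 or 2 or bleomycin replicate 1, and 0 without bleomycin replicate 2. It was also 5 without control replicate 2, with Postn in place of Fn1. Apart from the fits with all libraries and without LNP replicate 3, the share of all genes called was not counted. No fold change turned positive except that of Thbs2 without LNP replicate 1. Leaving out LNP replicate 3 removes the LNP library with the highest level of 9 of the 10 members.

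Against control, LNP lung had 8 of 10 members higher and none lower in edgeR, and the 2 others were Ccn2 and Postn. Postn was the single member lower at an unadjusted p under 0.05, it was called lower without control replicate 2 (log2 change -0.75, adjusted p = 0.014), and DESeq2 called 0 members lower. Of all genes 3.08% were called lower in this comparison. Without LNP replicate 3, 9 members were called higher, against 6.41% of all genes. In bleomycin against control 9 were called higher without that library, against 20.5% of all genes. With all libraries the median log2 change over the members was 1.68 against 0.00 over all genes, and 9 genes had no overlap, against 13.7% of all genes with LNP above control.

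The LNP libraries can be placed on the way from the control mean to the bleomycin mean, as a description on the CPM scale for the 9 genes with a rise. For Thbs1 the LNP replicates 1, 2 and 3 lay at 11.3%, 18.4% and 28.0% of that way, and for Ccn1 at 7.46%, 21.5% and 35.6%. Ccn2 lay at 4.27%, 6.97% and 66.1% and Tnc at 15.6%, 29.8% and 40.3%. Fn1 lay at 24.0%, 38.6% and 64.4% and Sparc at 43.5%, 50.8% and 62.3%. Tgfbi lay at 36.7%, 58.8% and 96.6%, Cthrc1 at 68.7%, 44.6% and 108% and Thbs2 at 35.3%, 65.2% and 136%. Their means of 64.0%, 73.8% and 78.9% were the highest of the 9, but in LNP replicates 1 and 2 the ranges of Tgfbi and Thbs2 took in that of Sparc. All 9 genes were highest in LNP replicate 3, and 8 of them were lowest in LNP replicate 1, the exception being Cthrc1.

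**Figure D4:**
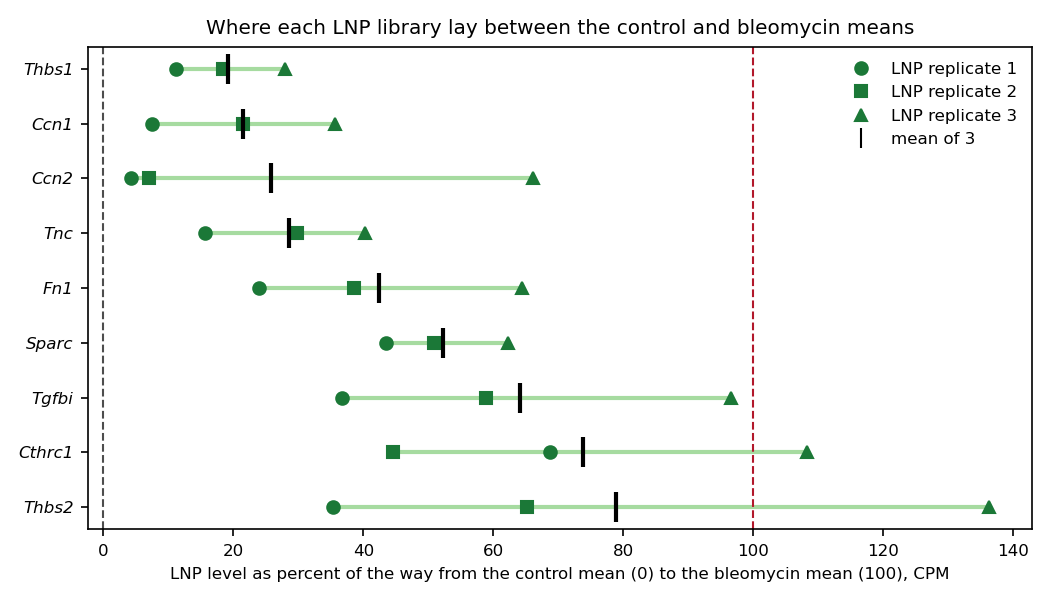
Position of each LNP library between the control mean (0%, grey dashed line) and the bleomycin mean (100%, red dashed line) on the CPM scale, for the 9 genes that rose after bleomycin, in order of their mean. Markers are LNP replicates and the black tick is their mean. LNP replicate 3 is the rightmost point in every row, from 28.0% for Thbs1 to 136% for Thbs2.

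Spread within a group also set the genes apart. In the bleomycin group, the highest library exceeded the lowest by 3.00 times for Thbs1, 2.20 times for Tnc and 1.50 times for Tgfbi, with replicate 1 highest and replicate 3 lowest each time. Cthrc1, at 1.64 times, and Postn, at 1.22 times, ran the other way, with replicate 3 highest and replicate 1 lowest. For Sparc, Ccn2, Fn1, Ccn1 and Thbs2 that ratio was 1.02 to 1.09. Among genes picked after their values were seen, the receptor gene Itga5, at 681, 513 and 414 CPM, and F3, at 426, 322 and 232 CPM in bleomycin replicates 1, 2 and 3, had the same library highest and the same lowest as Thbs1.

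Markers of cells that make these proteins moved as follows, and their part in the results was not tested. Counts of called genes here and in the lists below stand beside the shares of all genes. These were 15.2% higher and 18.5% lower in bleomycin against control, and 4.28% higher and 1.87% lower in LNP against bleomycin. LNP against control had 4.95% higher and 3.08% lower. Without LNP replicate 3, LNP against bleomycin had 14.0% higher and 10.7% lower. The summed level of 12 fibroblast markers was 2589.5, 2739 and 4299 CPM in LNP samples, 4192, 4438 and 4591 CPM in bleomycin samples and 2071, 2414 and 1994 CPM in control samples. LNP replicate 3 lay within the bleomycin range of this sum, while the other LNP libraries lay nearer to control. Col1a2, a chain of type I collagen, was at 1249, 1331 and 2213 CPM in LNP samples, 2146, 2311 and 2423 CPM in bleomycin samples and 524, 674 and 575 CPM in control samples, so it carried much of this sum. By gene, 2 of the 12 rose and 4 fell in bleomycin against control, and 1 was higher and none lower in LNP against bleomycin in edgeR, where 2 were lower at an unadjusted p under 0.05 and 1 was called lower by DESeq2. Without LNP replicate 3, 3 were higher and 6 lower. In LNP against control 1 fibroblast marker was higher and 1 lower. Monocyte-derived macrophage markers had 9 of 13 higher and 1 lower in bleomycin against control, and none called in LNP against bleomycin by edgeR. There 3 were higher and 0 lower at an unadjusted p under 0.05, DESeq2 called 2 higher and 0 lower, and without LNP replicate 3 edgeR called 2 higher and 5 lower. In LNP against control 9 of the 13 were higher (median log2 change 2.42), and none was lower in edgeR, in DESeq2 or at an unadjusted p under 0.05. Their median log2 change in bleomycin against control was 2.30, but their sum was 7882, 9157 and 5494 CPM in LNP samples, 4949, 4928 and 4948 CPM in bleomycin samples and 6051, 6661 and 5423 CPM in control samples. Lyz2, the lysozyme gene of myeloid and alveolar type 2 cells, was the most abundant of the 13, with 6419, 7185 and 2494 CPM in LNP samples, 2722, 2741 and 2738 CPM in bleomycin samples and 5658, 6165 and 5032 CPM in control samples. The 10 smooth muscle and pericyte markers summed to 1250.2, 1188 and 2839 CPM in LNP samples, 2110.4, 2181 and 2316 CPM in bleomycin samples and 1745, 2275 and 2112 CPM in control samples. Des, which skeletal muscle also expresses, was at 1292 CPM in LNP replicate 3, against 239 and 240.1 CPM in LNP replicates 1 and 2. Of the 10, edgeR called none in LNP against bleomycin, where 0 were higher and 3 lower at an unadjusted p under 0.05 and likewise in DESeq2. With LNP replicate 3 left out, edgeR called 6 lower. In bleomycin against control 1 of these 10 was higher and 4 lower. In LNP against control 3 were lower, and none was higher in edgeR, in DESeq2 or at an unadjusted p under 0.05. No marker of these 3 lists was at 0 in every library. Other lists also moved in bleomycin against control: 2 of 10 endothelial markers were higher and 7 lower, 3 of 8 mesothelial markers were higher and 3 lower, 8 of 9 adipocyte markers were lower and 8 of 12 cardiac muscle markers were lower. In LNP against bleomycin 2 endothelial markers, 1 mesothelial marker and no adipocyte or cardiac marker were lower in edgeR (likewise none of these last lists in DESeq2 or at an unadjusted p under 0.05), and 3 adipocyte markers were higher. There 7 endothelial and 5 adipocyte markers were higher without LNP replicate 3.

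Relatives of the 10 genes went both ways after bleomycin. Of 17 tested relatives (other thrombospondins, tenascins, CCN proteins, SPARC-like proteins and Spp1), 8 rose and 6 fell in bleomycin against control. Thbs4, a thrombospondin of tendon and muscle, had 13.8 ± 5.17 CPM in bleomycin and 0.651 ± 0.203 CPM in control lung (log2 change 4.41 ± 0.36, adjusted p = 9.6e-05). Ccn4, a Wnt-induced CCN protein, had 54.3 ± 16.9 CPM in bleomycin and 3.68 ± 0.531 CPM in control lung (log2 change 3.88 ± 0.33, adjusted p = 0.00012). Spp1, which encodes osteopontin, also rose (log2 change 6.02 ± 0.36, adjusted p = 3.0e-05). Tnxb, the tenascin of loose connective tissue, fell to 38.5 ± 1.50 CPM in bleomycin, against 169 ± 34.9 CPM in control lung (log2 change -2.13 ± 0.17, adjusted p = 8.8e-05).

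In LNP against bleomycin 2 relatives were higher and 3 lower. Ccn5, a CCN protein without the C-terminal domain of Ccn1 and Ccn2, had 72.6 ± 20.0 CPM in LNP and 28.6 ± 5.70 CPM in bleomycin lung (log2 change 1.35 ± 0.24, adjusted p = 0.016), and Tnxb was also higher (log2 change 0.89 ± 0.17, adjusted p = 0.019). Ccn4 (log2 change -1.59 ± 0.30, adjusted p = 0.019), Fstl1 (log2 change -0.94 ± 0.21, adjusted p = 0.032) and Spp1 (log2 change -1.31 ± 0.30, adjusted p = 0.034) were lower. In LNP against control 5 relatives were higher and 2 lower, with Thbs4 at 18.1 ± 3.74 CPM in LNP and 0.651 ± 0.203 CPM in control lung (log2 change 4.80 ± 0.36, adjusted p = 0.0002) and Tnxb at 71.2 ± 10.3 CPM in LNP and 169 ± 34.9 CPM in control lung (log2 change -1.25 ± 0.17, adjusted p = 0.0029). The median log2 change over the 17 was 0.83, -0.22 and 0.69 for bleomycin against control, LNP against bleomycin and LNP against control, against -0.05, 0.04 and 0.00 over all genes. Without LNP replicate 3, 3 were higher and 6 lower in LNP against bleomycin, beside 14.0% and 10.7% of all genes. In LNP against control 5 were then higher and 3 lower.

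Of 14 receptors for fibronectin and matricellular proteins, 8 rose and 3 fell in bleomycin against control (median log2 change 0.65). Itga5, whose product pairs with the integrin beta 1 chain to form the main fibronectin receptor, had 536 ± 135 CPM in bleomycin and 79.8 ± 8.10 CPM in control lung (log2 change 2.75 ± 0.38, adjusted p = 0.00084). Itgav (log2 change 1.42 ± 0.21, adjusted p = 0.0012) and Itgb3 (log2 change 1.40 ± 0.20, adjusted p = 0.00084), which together form the vitronectin receptor, rose as well. Itga8, an integrin chain of lung fibroblasts and smooth muscle, fell (log2 change -1.87 ± 0.28, adjusted p = 0.0012). In LNP against bleomycin 4 receptors were lower and none higher in edgeR, in DESeq2 or at an unadjusted p under 0.05: Itga5 (log2 change -1.47 ± 0.37, adjusted p = 0.047), Itgav (log2 change -0.84 ± 0.21, adjusted p = 0.046), Itgb3 (log2 change -0.77 ± 0.19, adjusted p = 0.047) and the proteoglycan Sdc4 (log2 change -1.01 ± 0.24, adjusted p = 0.039). The median of the 14 was -0.26. Without LNP replicate 3 the counts were 5 lower and 3 higher, beside 10.7% and 14.0% of all genes. Against control, LNP lung had 1 receptor higher, Itgb8 (log2 change 1.48 ± 0.37, adjusted p = 0.037), and 1 lower, Itga8 (log2 change -1.50 ± 0.28, adjusted p = 0.01), with a median of 0.23. DESeq2 called 4 receptors higher and 2 lower there, and without LNP replicate 3 edgeR called 3 higher and 1 lower. Over all genes, edgeR with all libraries called 4.95% higher and 3.08% lower in LNP against control.

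Of 17 genes known as targets of YAP and TEAD or of SRF, the factors that also act on Ccn1 and Ccn2, 4 rose and 3 fell in bleomycin against control, with a median of -0.06. These counts are 4 and 3 of 17, beside 15.2% higher and 18.5% lower over all genes. DESeq2 called 6 higher and 3 lower. F3, which encodes tissue factor, had 327 ± 96.8 CPM in bleomycin and 47.1 ± 5.03 CPM in control lung (log2 change 2.79 ± 0.37, adjusted p = 0.00071), and the receptor kinase gene Axl rose (log2 change 1.03 ± 0.19, adjusted p = 0.0034). Crim1 (log2 change -1.11 ± 0.20, adjusted p = 0.003) and the smooth muscle gene Cnn1 (log2 change -1.03 ± 0.22, adjusted p = 0.0065) fell. In LNP against bleomycin 2 were lower, F3 (log2 change -1.84 ± 0.36, adjusted p = 0.021) and Ankrd1, a YAP target of stretched cells (log2 change -1.27 ± 0.28, adjusted p = 0.029), and none was higher in edgeR, in DESeq2 or at an unadjusted p under 0.05. Ankrd1 was at 20.7, 26.9 and 48.2 CPM in LNP samples and 72.4, 78.7 and 80.4 CPM in bleomycin samples, with LNP replicate 3 again the highest of its group. The median was -0.23. Without LNP replicate 3, 5 were lower, beside 10.7% of all genes. In bleomycin against control 8 then rose, beside 20.5% of all genes. Against control, LNP lung had 1 of the 17 higher, Axl (log2 change 0.85 ± 0.19, adjusted p = 0.025), and 2 lower, Crim1 (log2 change -0.93 ± 0.20, adjusted p = 0.021) and Cnn1 (log2 change -1.48 ± 0.22, adjusted p = 0.0045), with a median of -0.36. DESeq2 called 3 higher and 6 lower there, and without LNP replicate 3 edgeR called 1 higher and 6 lower. Of all genes, edgeR with all libraries called 4.95% higher and 3.08% lower in LNP against control.

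Of 14 enzymes and matrix proteins that bind or process the 10 proteins, 12 rose and 1 fell in bleomycin against control (median 1.83). Col1a1, a chain of type I collagen, had 2805 ± 197 CPM in bleomycin and 513 ± 69.5 CPM in control lung (log2 change 2.45 ± 0.21, adjusted p = 0.00012). Col3a1 (log2 change 1.78 ± 0.14, adjusted p = 8.0e-05), the protease Adamts1 (log2 change 2.41 ± 0.18, adjusted p = 8.0e-05) and the membrane metalloproteinase Mmp14 (log2 change 2.27 ± 0.22, adjusted p = 0.0002) rose too. In LNP against bleomycin 2 were lower and 1 higher, with a median of -0.57. Adamts1, which cleaves proteoglycans, had 115 ± 8.34 CPM in LNP and 315 ± 75.8 CPM in bleomycin lung (log2 change -1.45 ± 0.18, adjusted p = 0.0039), Col3a1 was lower (log2 change -0.58 ± 0.13, adjusted p = 0.035), and the fibulin gene Fbln1 was higher (log2 change 1.09 ± 0.27, adjusted p = 0.044). Leaving out LNP replicate 3, 10 of the 14 were lower and 1 higher. In LNP against control 7 were higher and none lower in edgeR, in DESeq2 or at an unadjusted p under 0.05, with a median of 1.24. Among the 7 were Col1a1 (log2 change 1.69 ± 0.21, adjusted p = 0.0021), Col3a1 (log2 change 1.20 ± 0.14, adjusted p = 0.0014), Fbn1 (log2 change 1.30 ± 0.21, adjusted p = 0.006) and Mmp14 (log2 change 1.72 ± 0.22, adjusted p = 0.0024).

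As a description, the genes whose log2 CPM over the 9 libraries was most like that of a member were named from 11798 genes with a mean of at least 5 CPM, by Pearson's r. The 9 libraries fall into groups, so r mostly follows the differences between groups and carries no p. For Fn1 they were Mdga1, Klhdc8a and Col5a3 (r = 0.998, 0.998 and 0.998). For Sparc they included Mgp and Tpcn2 (r = 0.997 and 0.995), where Mgp encodes a matrix inhibitor of calcification. For Thbs2 they were C1qc, C1qb and Pirb (r = 0.996, 0.992 and 0.992), where C1qb and C1qc encode complement subunits made by macrophages. For Ccn1 they were Actn1, Myof and Polr1g (r = 0.994, 0.994 and 0.992), where Actn1 encodes an actin cross-linker. For Tnc they were Brinp1, Anxa1 and Arpc1b (r = 0.996, 0.994 and 0.994), where Anxa1 encodes annexin A1. For Tgfbi they were Wnt7b, Slc39a11 and Neu1 (r = 0.996, 0.995 and 0.993), where Wnt7b encodes a Wnt ligand of lung epithelium. For Thbs1 they were Ackr3, Rtn4 and Tubb6 (r = 0.994, 0.993 and 0.993), where Ackr3 encodes a scavenging chemokine receptor. For Ccn2 they were Wipf3, Poc1a and Pappa (r = 0.995, 0.994 and 0.993), where Pappa encodes a protease of insulin-like growth factor binding proteins. For Cthrc1 they were Ccdc80, Gjb5 and Slc66a1 (r = 0.983, 0.983 and 0.983), where Ccdc80 encodes a matrix protein. For Postn they included Arid2 and Prkg1 (r = 0.958 and 0.933), at lower values than those given for the others.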

How the data were processed

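The members and gene lists were chosen with earlier results of these data known. Libraries from poly(A) RNA kept strand information, per the labels' protocols. Tools named in the submitters' processing notes, without versions, are fastp, StringTie and edgeR. Neither the aligner nor the build or the strand setting of the counting was stated. Values deposited by the authors are raw counts of genes and of transcripts. FPKM of genes was also computed by the authors, per the file headers. Transcript counts summed to the gene count within 1 in every library for all 10 members. Genes of the table that overlap a member on the opposite strand (Apol7d, 8030451A03Rik, Gm29233 and Gm15270) reached at most 1.34 CPM.

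Counts of all 9 libraries entered 1 fit of edgeR 4.0.16 in R 4.3.3 (quasi-likelihood F test, TMM scaling, filterByExpr), which kept 20794 genes and left out 11877. Genes were called at an adjusted p under 0.05. CPM uses TMM-scaled library sizes. Named genes are the 10 members, up to 4 called genes with the smallest p per pathway list and comparison, and the 3 genes most like a member in log2 CPM (prior count 2), of which some are not reported here. The values by library of Itga5, F3, Ankrd1, Lyz2, Pf4, Col1a2 and Des, and Spp1 in LNP against bleomycin, were chosen after values were seen. Alternatives were DESeq2 1.42.0, RLE scaling, no count filter, 2 groups per fit, the replicate number as a block, a 2-fold minimum, limma 3.58.1 on log2(FPKM + 1) or log2(FPKM + 0.1) at a mean FPKM of at least 0.5, no FPKM filter, and leaving out each library. Scaling by library size alone was added after seeing the data. No replicate pair agreed within sampling noise (chi-square over degrees of freedom 30.2 or more). Scripts were tested on simulated counts.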

Additional observations from a re-analysis of the deposited data

How the results depend on the processing

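Bleomycin raised 9 members and lowered none under every setting tried (9 to 9 and 0 to 0 without each library in turn). For LNP against bleomycin, members called lower numbered 5, but 3 with no count filter, 1 with 2 groups per fit, 1 with limma on log2(FPKM + 1) without a filter and 0 under a 2-fold minimum, and 0 to 8 without each library in turn. The replicate number as a block gave 1, and it lowered the members called higher in LNP against control to 7 of 8. Same-numbered libraries did not deviate together (r from -0.018 to 0.04). With 1 library per number and group, this cannot show whether the numbers pair the samples. For LNP against control, members called higher numbered 8, but 3 under a 2-fold minimum, and 6 to 9 without each library in turn, and members called lower 0 to 1. Shares of all genes called were counted only with all libraries and without LNP replicate 3. Postn in bleomycin against control turned positive with DESeq2 (0.029), RLE scaling (0.031), 2 groups per fit (0.023), the replicate block (0.009), and without LNP replicate 3 (0.022), bleomycin replicate 1 (0.049), control replicate 1 (0.079) or control replicate 3 (0.105), on the log2 scale. Without each library in turn it ran from -0.207 to 0.105. Thbs2 in LNP against bleomycin ran from -0.838 without LNP replicate 3 to 0.008 without LNP replicate 1. The causes were not tested. Scaling by library size alone moved the median of all genes in LNP against bleomycin by 0.12 on the log2 scale and left 5 members called lower.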
